A study of Mus musculus with 8 samples.

Results

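The genes described here are 8 mouse genes of the oxidative stress response controlled by the transcription factor NRF2, which is encoded by Nfe2l2. The members are Nfe2l2 (ENSMUSG00000015839), Sqstm1 (ENSMUSG00000015837), Hmox1 (ENSMUSG00000005413), Nqo1 (ENSMUSG00000003849), Gclc (ENSMUSG00000032350), Gclm (ENSMUSG00000028124), Txnrd1 (ENSMUSG00000020250) and Srxn1 (ENSMUSG00000032802). They were picked by identifier for their known function, with earlier results of these data known. They are 8 of the 28785 genes with a read in at least 1 of the 4 libraries. All 8 had reads in all 4 libraries.

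RNA was sequenced from mouse embryonic fibroblasts, connective tissue cells cultured from embryos, of the genotype TSC2+/+ and the strain C57BL/6J. The cells were either not heat shocked, or held at 42 °C for 1 h and then allowed to recover at 37 °C for 3 h. Cells were lysed into a cytoplasmic supernatant and a chromatin pellet, the latter freed of soluble nuclear RNA, which gave 4 groups with 1 library each, so that no replicate spread exists and no significance test was made. The series also holds 2 chromatin libraries enriched for the methylated RNA base m6A and 2 input libraries, which were not analysed here.

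NRF2 is held in the cytoplasm and marked for degradation by KEAP1. Oxidants and electrophiles disable KEAP1, and NRF2 then enters the nucleus, pairs with a small MAF protein and binds antioxidant response elements near its target genes. In fibroblasts, as in most cells, the targets supply enzymes that make glutathione, recycle thioredoxin and peroxiredoxins, reduce quinones and break down heme. Hmox1 is also a classical heat-inducible gene of rodents, and RefSeq lists Hsp32 among its synonyms.

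RefSeq promoter windows of the build GRCm38.p6 were matched by symbol for 6 of the 8 members, all but Hmox1 and Gclc, with 8 windows in all because Txnrd1 has several starts. The 250 bases before each start were searched on both strands for TGACNNNGC, the core of the antioxidant response element, for the looser core TGANNNNGC, which includes the first, and for GAANNTTC and TTCNNGAA, facing pairs of heat shock element units. Among all 32851 windows of that length, 10.2% held the first, 35.2% the second, 6.69% the third and 7.17% the fourth. The stricter core was found in Nfe2l2, in Gclm and in the second Txnrd1 window. In Srxn1 only the looser core was found, at 3 places, and in the third Txnrd1 window at 1 place. The Sqstm1 and Nqo1 windows held neither core, and no member window held a heat shock element pair. These are matches of letters and not measured binding. The windows below are shown because Nfe2l2 and Srxn1 differed more than 2-fold in chromatin in opposite directions in the values as deposited, and because the gene length recovered for Txnrd1 runs from its second start. Nqo1, which was 8.06-fold higher in chromatin after heat shock, has a window with neither core, which is not shown. A link of these matches with the folds was not tested. Each window shown is written 5′ to 3′ on the gene's strand and ends at the base before the start, with matches to either core in capitals.
Nfe2l2, minus strand, chr2:75704664-75704913: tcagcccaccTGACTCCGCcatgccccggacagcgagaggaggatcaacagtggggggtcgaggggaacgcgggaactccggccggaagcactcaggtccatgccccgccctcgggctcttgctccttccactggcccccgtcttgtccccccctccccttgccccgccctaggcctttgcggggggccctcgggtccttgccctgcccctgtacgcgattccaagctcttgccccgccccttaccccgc
Srxn1, plus strand, chr2:152105274-152105523: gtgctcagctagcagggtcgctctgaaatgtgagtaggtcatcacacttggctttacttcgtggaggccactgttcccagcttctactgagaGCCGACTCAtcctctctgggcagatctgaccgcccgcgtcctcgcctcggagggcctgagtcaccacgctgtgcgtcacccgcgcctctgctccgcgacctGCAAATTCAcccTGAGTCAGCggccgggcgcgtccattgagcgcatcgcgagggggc
Txnrd1, plus strand, chr10:82858956-82859205: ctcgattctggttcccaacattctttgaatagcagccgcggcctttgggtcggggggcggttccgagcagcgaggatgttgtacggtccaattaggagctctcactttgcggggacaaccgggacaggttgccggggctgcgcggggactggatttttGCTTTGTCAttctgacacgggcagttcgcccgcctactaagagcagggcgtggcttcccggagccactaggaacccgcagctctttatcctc

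In Srxn1 the match nearest the start is TGAGTCAGC, which begins 45 bases before it. The match of Nfe2l2, TGACTCCGC, begins 240 bases before the start. In Gclm the match lies on the other strand and reads GCACCGTCA on the gene's strand, 134 bases before the start.

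The deposited unit is RPKM, reads scaled to the length of the gene and to the total reads of the library. Whole reads could be recovered from the values, with totals of 8292312 to 19536459 per library, and intervals below are exact 95% intervals on these reads. They cover counting error only, and not differences between cultures. Values are relative to each library's own total, so 2 genes compared within a library pair do not depend on scale while single folds do. Each fold was therefore recomputed after giving the libraries the same RPKM sum, after doing so without the 10 genes of highest mean RPKM, and after setting the median gene to no change. With the deposited scale these make 4 scales. They multiply the heat shock folds of all genes by 0.641, 0.675 and 0.888 in chromatin and by 0.854, 0.886 and 1.45 in cytoplasm. In bulk RNA, fewer cells with an RNA and less of it per cell cannot be told apart.

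The gene length behind each RPKM, which was recovered with the reads, was close to that of the whole gene with introns for most members, so levels of different genes are compared per kilobase of gene and not of mRNA. It was 29129 bp for Nfe2l2 (RefSeq span 29151 bp, chr2:75675513-75704663), 7006 bp for Hmox1 (6976 bp, chr8:75093618-75100593), 14982 bp for Nqo1 (14981 bp, chr8:107388225-107403205), 39951 bp for Gclc (39955 bp, chr9:77754535-77794489) and 5861 bp for Srxn1 (5853 bp, chr2:152105524-152111376). For Sqstm1 it was 11462 bp, longer than the RefSeq span of 10669 bp (chr11:50200152-50210820), and for Gclm 25176 bp against 21729 bp (chr3:122245487-122267215). For Txnrd1 it was 38519 bp, which equals the distance from the second RefSeq start to the gene's end, while the full RefSeq span is 63774 bp (chr10:82833951-82897724). The gene Eid3 lies inside the 38519 bp span of Txnrd1, and the lncRNA Gm38560 overlaps only the full RefSeq span. The pseudogene Gm6061 lies inside Gclm and the lncRNA Gm46822 overlaps its start. How reads in shared bases were assigned is not given in the sources used here, so these 2 members are uncertain to that extent. The other 6 overlap no RefSeq gene.

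Nfe2l2 itself was the one member lower in chromatin after heat shock on all 4 scales. Its level was 5.93 RPKM in chromatin without heat shock (3171 reads), 2.28 RPKM in chromatin after it (1299 reads), 0.633 RPKM in cytoplasm without it (153 reads) and 0.842 RPKM in cytoplasm after it (273 reads). The chromatin level was 2.60-fold lower after heat shock (95% interval 2.43 to 2.77), and the cytoplasmic level was 1.33-fold higher (1.09 to 1.63). Both directions held on all 4 scales, with a chromatin level 2.60-fold to 4.05-fold lower and a cytoplasmic level 1.13-fold to 1.92-fold higher. In the deposited values all 4 libraries differed from their neighbour in level beyond counting error. The order was as just given, except that cytoplasm after heat shock lay above cytoplasm without it. This order across fractions depends on the scale. With the median gene set to no change, chromatin over cytoplasm after heat shock was 0.861.

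Sqstm1 encodes p62, an autophagy receptor that binds KEAP1 and is also an NRF2 target. It had the highest RPKM of the 8 members in every library. In chromatin it stood at 7.76 RPKM without heat shock (1633 reads) and 8.13 RPKM after it (1820 reads), and in cytoplasm at 4.17 RPKM (396 reads) and 4.13 RPKM (527 reads). The levels before and after heat shock were within counting error in both fractions, with folds of 1.05 (0.979 to 1.12) in chromatin and 0.991 (0.869 to 1.13) in cytoplasm. On the other 3 scales the chromatin fold was below 1, at 0.672, 0.707 and 0.930, and the cytoplasmic fold ran from 0.846 to 1.43, so its direction depends on the scale.

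Hmox1 encodes heme oxygenase 1, which breaks heme down to biliverdin, iron and carbon monoxide. Its chromatin level was 1.75 RPKM without heat shock (225 reads) and 4.67 RPKM after it (639 reads), while cytoplasm held 2.44 RPKM (142 reads) and 2.65 RPKM (207 reads). Chromatin after heat shock was the highest of the 4 libraries on the deposited scale and chromatin without it the lowest. The cytoplasmic levels lay between them and within counting error of each other. This order depends on the scale. Over the 4 scales, chromatin over cytoplasm ran from 0.365 to 2.27 without heat shock and from 0.558 to 4.19 after it. In chromatin the gene was 2.67-fold higher after heat shock (2.29 to 3.12), and 1.71-fold to 2.67-fold higher over the 4 scales. In cytoplasm the fold was 1.09 (0.873 to 1.35), and it fell on both sides of 1 among the scales (0.927 to 1.57).

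Nqo1, which encodes a reductase that turns quinones into hydroquinones, had the fewest reads. It had 7 reads in chromatin without heat shock (0.0254 RPKM), 60 after it (0.205 RPKM), 15 in cytoplasm without it (0.121 RPKM) and 21 after it (0.126 RPKM). Chromatin without heat shock was the lowest library on the deposited scale, and the other 3 followed each other within counting error. The chromatin fold of 8.06 therefore has a wide interval of 3.68 to 20.9, and it was 5.17 to 8.06 over the 4 scales. The cytoplasmic fold was 1.04 (0.512 to 2.17), so a difference of up to about 2-fold was not detectable at this depth.

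**Figure D1:**
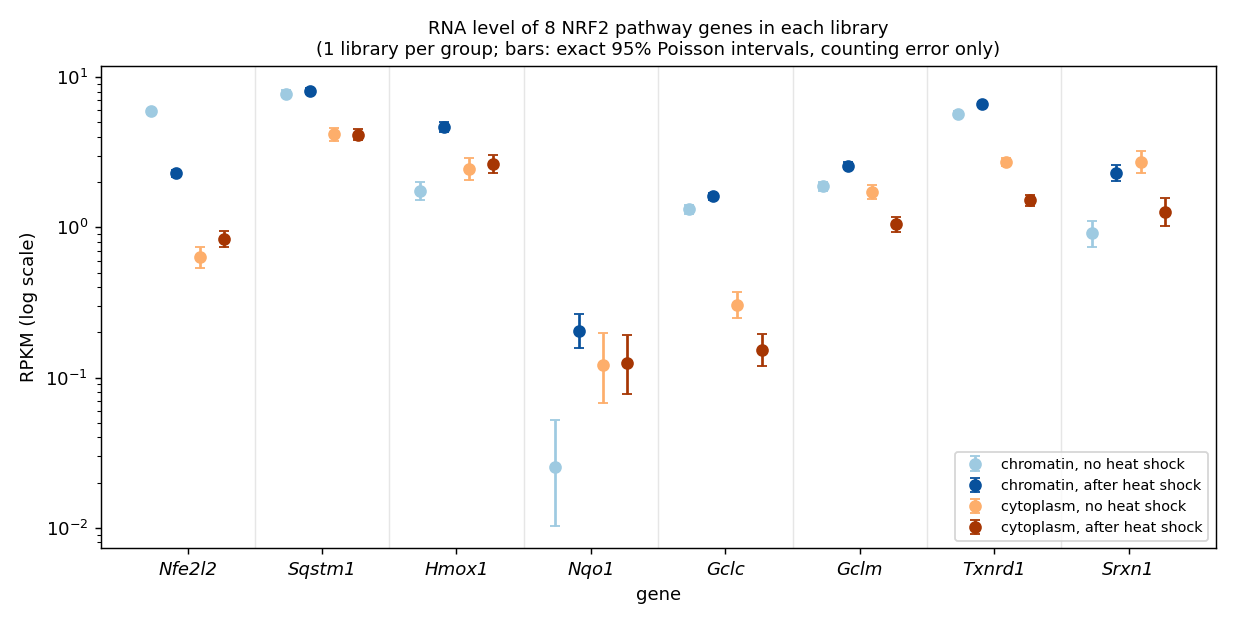
RPKM (log axis) of each member in the 4 libraries, with points for the single library of each group and bars for exact 95% Poisson intervals on its reads. In the values as deposited, Nfe2l2 is highest in chromatin without heat shock at 5.93 RPKM, whereas Hmox1 and Nqo1 are lowest there, at 1.75 and 0.0254 RPKM.

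Gclc and Gclm encode the catalytic and the modifier subunit of glutamate cysteine ligase, the rate-limiting enzyme of glutathione synthesis. Gclc stood at 1.32 RPKM in chromatin without heat shock (965 reads) and 1.61 RPKM after it (1254 reads), and at 0.305 RPKM (101 reads) and 0.153 RPKM (68 reads) in cytoplasm. Gclm stood at 1.87 RPKM (865 reads) and 2.57 RPKM (1265 reads) in chromatin, and at 1.72 RPKM (359 reads) and 1.05 RPKM (295 reads) in cytoplasm. For both genes, chromatin after heat shock was the highest library and cytoplasm after heat shock the lowest on the deposited scale. This order depends on the scale. With the median gene set to no change, chromatin over cytoplasm after heat shock was 0.775 for Gclm and 3.34 for Gclc.

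In cytoplasm Gclc was 1.99-fold lower after heat shock (1.45 to 2.75) and Gclm 1.63-fold lower (1.40 to 1.91). These directions held on all 4 scales, from 1.38-fold to 2.34-fold lower for Gclc and from 1.13-fold to 1.91-fold lower for Gclm. In chromatin Gclc was 1.22-fold higher (1.12 to 1.33) and Gclm 1.37-fold higher (1.26 to 1.50) on the deposited scale, but both were below 1 with equal RPKM sums (0.783 and 0.881) and without the 10 highest genes (0.824 and 0.928). The ratio between their folds, which no scale changes, was 0.889 for Gclc over Gclm in chromatin (0.786 to 1.00) and 0.819 in cytoplasm (0.571 to 1.17). A difference between the 2 subunit genes was thus not detectable at this depth.

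Txnrd1 encodes cytosolic thioredoxin reductase 1, which keeps thioredoxin reduced with NADPH. It had the most reads of the members in every library, with 5.72 RPKM in chromatin without heat shock (4049 reads) and 6.60 RPKM after it (4965 reads), and 2.72 RPKM (869 reads) and 1.51 RPKM (648 reads) in cytoplasm. Its cytoplasmic level was 1.80-fold lower after heat shock (1.62 to 2.00) and 1.25-fold to 2.11-fold lower over the 4 scales. The chromatin fold was 1.15 (1.11 to 1.20) on the deposited scale, but it was 0.739 with equal RPKM sums and 0.778 without the 10 highest genes.

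Srxn1 encodes sulfiredoxin, which repairs overoxidised peroxiredoxins, and it was the member that differed in opposite directions past 2-fold. In chromatin it stood at 0.910 RPKM without heat shock (98 reads) and 2.31 RPKM after it (264 reads). In cytoplasm it stood at 2.74 RPKM (133 reads) and 1.27 RPKM (83 reads). As deposited, cytoplasm without heat shock and chromatin after it were the high libraries and lay within counting error of each other (ratio 1.19, 0.956 to 1.47). They were followed by cytoplasm after heat shock and then chromatin without it. This order depends on the scale. With equal RPKM sums, chromatin over cytoplasm without heat shock was 1.06.

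The chromatin level of Srxn1 was 2.53-fold higher after heat shock (2.00 to 3.23), and 1.62-fold to 2.53-fold higher over the 4 scales. Its cytoplasmic level was 2.15-fold lower (1.62 to 2.86), and 1.49-fold to 2.52-fold lower over the scales. The chromatin folds of Hmox1 and Srxn1 were within counting error (ratio 1.05, 0.790 to 1.40), while in cytoplasm the fold of Hmox1 was 2.34 times that of Srxn1 (1.63 to 3.36).

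**Figure D2:**
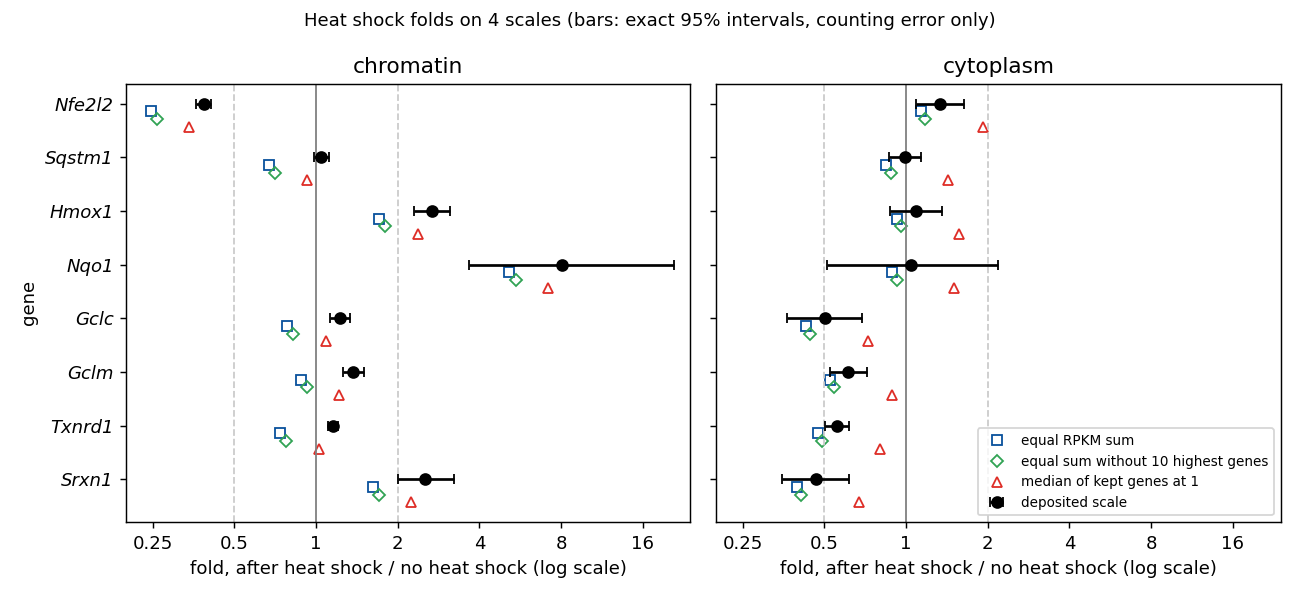
Fold after heat shock over no heat shock (log axis) of each member in chromatin (left) and cytoplasm (right), with filled points for the deposited scale, bars for exact 95% intervals and open symbols for the other 3 scales. In chromatin Nfe2l2 lies below 1 and Hmox1, Nqo1 and Srxn1 lie above 1 on all 4 scales, and in cytoplasm Gclc, Gclm, Txnrd1 and Srxn1 lie below 1 on all 4.

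The folds were then set against those of all genes. For counts of genes past 2-fold, the log2 ratio of RPKM + 1 was used over genes with a mean of at least 1 RPKM in the 4 libraries, which kept 6 of the 8 members and left out Nqo1 and Gclc. In chromatin 1 of the 6, Hmox1, was at least 2-fold higher after heat shock, where 10.4% of the 4635 genes compared were, and 1 of the 6, Nfe2l2, was at least 2-fold lower, where 4.66% were. The median log2 ratio was 0.25 over the 6 members and 0.12 over all genes compared. The ratio of Hmox1 lay above that of 90.3% of these genes, that of Srxn1 above 85.5%, and that of Nfe2l2 below 96.0%.

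With plain RPKM ratios over genes with at least 30 reads in the 2 libraries together, all 8 members could be compared, Nqo1 only through its reads after heat shock. Hmox1, Nqo1 and Srxn1 were then at least 2-fold higher in chromatin, 3 of 8 where 19.1% of 14234 genes were, and Nfe2l2 was at least 2-fold lower, 1 of 8 where 18.0% were. The count of 3 became 1, Nqo1, with equal RPKM sums and without the 10 highest genes, where Hmox1 was at 1.71 and 1.80 and Srxn1 at 1.62 and 1.71. The share of all genes was computed on the deposited scale only. By plain ratios Hmox1 lay above 86.1% of the genes in chromatin, Srxn1 above 85.4% and Nfe2l2 below 89.4%. The counts are over few genes, and they describe Hmox1, Nqo1, Srxn1 and Nfe2l2 rather than the pathway. The 3 higher members have short genes, of 5.86, 7.01 and 15.0 kb, and among genes of up to 20 kb 21.7% were at least 2-fold higher and 14.9% lower. Nfe2l2, at 29.1 kb, is among the genes over 20 kb, of which 17.0% were at least 2-fold higher and 20.6% lower. The part of gene length in these folds was not tested.

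In cytoplasm 0 of the 6 kept members passed 2-fold in either direction, where 3.4% of 4505 genes were higher and 2.44% lower. With plain ratios over 9888 genes, 1 of 8, Srxn1, was at least 2-fold lower, where 22.0% were, and 0 of 8 were at least 2-fold higher, where 7.9% were. Among genes of up to 20 kb, which include Srxn1, 7.57% were at least 2-fold higher and 19.2% lower, and among longer genes 8.13% and 24.1%. The median gene was lower after heat shock in this fraction, with a log2 ratio of -0.60 over these 9888 genes against -0.36 over the 8 members. Nfe2l2, Hmox1, Nqo1 and Sqstm1 lay above 88.6%, 85.1%, 84.1% and 82.5% of all genes. By contrast, Gclm, Txnrd1, Gclc and Srxn1 lay above 41.4%, 30.9%, 22.2% and 17.0%. With RPKM + 1, Nfe2l2, Hmox1 and Sqstm1 lay above 89.7%, 87.5% and 82.8% of 4505 genes. By that rule Gclm, Txnrd1 and Srxn1 lay above 25.7%, 11.2% and 5.50%.

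**Figure D3:**
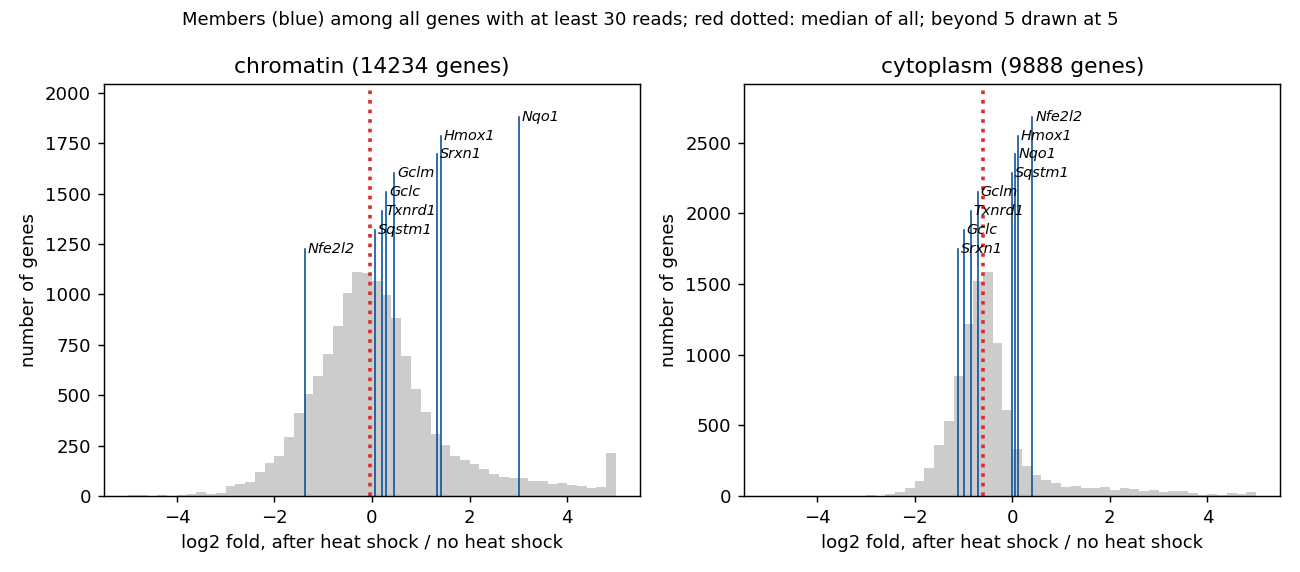
Number of genes by log2 fold after heat shock in chromatin (left, 14234 genes) and cytoplasm (right, 9888 genes), for genes with at least 30 reads, with members as blue lines and the median of all genes as a dotted line. The cytoplasmic median is at -0.60, with Sqstm1, Nqo1, Hmox1 and Nfe2l2 to its right and Gclm, Txnrd1, Gclc and Srxn1 to its left.

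Whether a member differed alike in both fractions was read from the ratio of its chromatin fold to its cytoplasmic fold. This ratio was 0.290 for Nfe2l2 (0.234 to 0.358), the one member below 1 on the deposited scale. It was 7.73 for Nqo1 (2.50 to 25.2), 5.45 for Srxn1 (3.74 to 7.93), 2.46 for Hmox1 (1.87 to 3.22), 2.44 for Gclc (1.75 to 3.40), 2.25 for Gclm (1.87 to 2.69) and 2.08 for Txnrd1 (1.86 to 2.32). For Sqstm1 it was 1.06 (0.910 to 1.23), within counting error of 1. Nfe2l2 stayed below 1 on all 4 scales (0.178 to 0.290) and the 6 others above 1, with Txnrd1 nearest to it (1.27 to 2.08), while Sqstm1 was below 1 on the other 3, at 0.794, 0.805 and 0.649.

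The ratio was above 1 for most genes, 73.3% on the RPKM + 1 scale. There the log2 difference between fractions was at least 1 for 16.5% of 4473 genes and at most -1 for 4.52%. Of the 6 kept members, Srxn1 passed the first limit with 1.51 and Nfe2l2 the second with -1.25. Over all genes the median difference was 0.37, and over the 6 members 0.73. The difference of Nfe2l2 was below that of 97.0% of these genes, and that of Srxn1 was above that of 93.5%. With plain ratios and at least 30 reads in each fraction, 6 of 8 members had a difference of at least 1, where 25.2% of 9632 genes did, and 1 of 8, Nfe2l2, had one of at most -1, where 8.64% did, all on the deposited scale. The 6 were Nqo1 at 2.95, Srxn1 at 2.45, Hmox1 at 1.30, Gclc at 1.28, Gclm at 1.17 and Txnrd1 at 1.05. Nqo1 reached 30 chromatin reads only through the heat shock library, where it is high. On each of the other 3 scales Hmox1, Gclc, Gclm and Txnrd1 were under this limit, which leaves 2 of 8, Nqo1 and Srxn1. With equal RPKM sums the fold ratios of Hmox1, Gclc, Gclm and Txnrd1 were 1.85, 1.83, 1.69 and 1.56. The share of all genes past this limit was computed on the deposited scale only.

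Within the 8 members, the make-up of the reads can be compared with no choice of scale. In chromatin Nfe2l2 took 28.8% of the members' reads without heat shock (27.9 to 29.6, Clopper-Pearson) and 11.2% after it (10.7 to 11.8). The share of Hmox1 there went from 2.04% (1.79 to 2.32) to 5.52% (5.12 to 5.96), and that of Srxn1 from 0.890% (0.723 to 1.08) to 2.28% (2.02 to 2.57). The 8 members together held 0.0600% of chromatin reads without heat shock (0.0589 to 0.0611) and 0.0592% after it (0.0581 to 0.0603). On the deposited scale their sum was thus within counting error while its make-up was not. Unlike the make-up, the sum is relative to the library total and depends on the scale. The other scales multiply its fold by 0.641, 0.675 and 0.888.

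In cytoplasm the members' joint share of the library total was 0.0261% without heat shock (0.0251 to 0.0273) and 0.0191% after it (0.0183 to 0.0199). The other scales multiply the fold of this share by 0.854, 0.886 and 1.45, so its direction depends on the scale. Txnrd1 took 40.1% of the members' reads (38.0 to 42.2) and then 30.5% (28.6 to 32.5). Sqstm1 went from 18.3% (16.7 to 20.0) to 24.8% (23.0 to 26.7) and Nfe2l2 from 7.06% (6.01 to 8.22) to 12.9% (11.5 to 14.4). A share within the set also moves with the other members. The cytoplasmic level of Sqstm1 itself was within counting error on the deposited scale, with a fold of 0.991 (0.869 to 1.13).

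The pairs of members were compared in the same way, by the ratio of their heat shock folds. Of 28 pairs, 25 had an interval that excluded 1 in chromatin and 14 in cytoplasm, without adjustment for the number of pairs. Pairs that share a gene are not separate results. The same count was not made over pairs of other genes, so these counts do not set the members apart. The fold of Hmox1 was 6.93 times that of Nfe2l2 in chromatin (5.86 to 8.21), while in cytoplasm the pair was within counting error (0.817, 0.604 to 1.11). In chromatin the fold of Srxn1 was 2.20 times that of Txnrd1 (1.73 to 2.81), and in cytoplasm 0.837 times (0.617 to 1.13). Of the 3 pairs within counting error in chromatin, 2 were formed by Gclc with Gclm and with Txnrd1, and the other by Hmox1 with Srxn1.

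The RPKM in chromatin was compared next with that in cytoplasm, in the same 4 libraries, so the values below are not independent of the folds above. Each RPKM is relative to its own library total, so the ratio does not give the split of a gene's RNA between fractions. The ratios in this paragraph are on the deposited scale. Without heat shock, Nfe2l2 was 9.36-fold higher in chromatin than in cytoplasm (7.95 to 11.1), Gclc 4.31-fold (3.51 to 5.35), Txnrd1 2.10-fold (1.95 to 2.27) and Sqstm1 1.86-fold (1.67 to 2.08). Gclm was at 1.09 (0.961 to 1.23). Hmox1 was 1.40-fold lower in chromatin (1.12 to 1.73), Srxn1 3.01-fold lower (2.30 to 3.94) and Nqo1 4.75-fold lower (1.82 to 13.8). The 4 members with genes over 20 kb thus had the ratios 9.36, 4.31, 2.10 and 1.09, and those with shorter genes had ratios of 1.86 or less.

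After heat shock all 8 ratios were above 1 on the deposited scale, as were those of 88.4% of 13467 genes with at least 30 reads. The median log2 ratio was 1.13 over the 8 members and 2.14 over these genes. Gclc was 10.5-fold higher in chromatin (8.23 to 13.6), Txnrd1 4.37-fold (4.02 to 4.75), Nfe2l2 2.71-fold (2.38 to 3.10) and Gclm 2.44-fold (2.15 to 2.78). Sqstm1, Srxn1, Hmox1 and Nqo1 had ratios of 1.97 (1.78 to 2.17), 1.81 (1.41 to 2.35), 1.76 (1.50 to 2.07) and 1.63 (0.976 to 2.82). Nfe2l2 thus had the highest ratio of the 8 without heat shock, and Gclc had it after.

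On the RPKM + 1 scale 1 of 6 kept members, Nfe2l2, was at least 2-fold higher in chromatin without heat shock, where 32.4% of 4512 genes were, and 1 of 6, Txnrd1, after it, where 45.8% of 4575 genes were. None of the 6 was at least 2-fold lower in either condition, against 11.7% and 6.93% of genes. The plain ratios of most genes were also high in chromatin, at least 2-fold for 69.0% of 11865 genes without heat shock and 75.7% of 13467 after it, and at least 2-fold low for 6.83% and 5.91%. By this rule 3 of 7 members (Nfe2l2, Gclc and Txnrd1) were at least 2-fold higher in chromatin without heat shock and 1 of 7, Srxn1, lower, with Nqo1 left out for too few reads. After heat shock Nfe2l2, Gclc, Gclm and Txnrd1 were, 4 of 8, and 0 of 8 were lower.

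Gene length moved with this ratio among all genes too. Without heat shock, of genes over 20 kb 86.8% were past 2-fold toward chromatin and 1.14% toward cytoplasm, against 46.6% and 14.0% of genes of up to 20 kb. After heat shock the shares were 87.0% and 3.78% of the longer genes and 61.1% and 8.66% of the shorter. The members higher in chromatin by this rule were all among the longer genes, 3 of 4 without heat shock and 4 of 4 after it, and Srxn1 is among the shorter. The part of gene length in the members' ratios was not tested.

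With the median gene set equal between fractions, 3 of 8 members were above 1 without heat shock and 2 of 8 after it, against 5 and 8 on the deposited scale. On the deposited scale 84.9% and 88.4% of genes with at least 30 reads were above 1. The direction held on all 4 scales in both conditions for Gclc and Txnrd1, which were higher in chromatin. Without heat shock it also held for Nfe2l2, higher in chromatin, and for Nqo1, lower there.

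**Figure D4:**
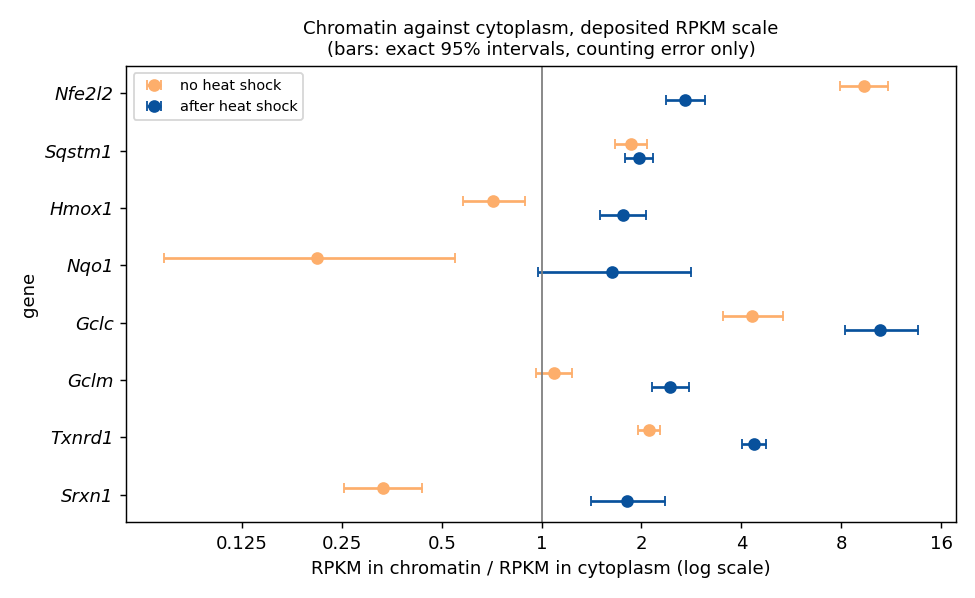
RPKM in chromatin over RPKM in cytoplasm (log axis) for each member without heat shock (light points) and after it (dark points), on the deposited scale, with exact 95% intervals. Nfe2l2 goes from 9.36 to 2.71, Srxn1 goes from 0.333 to 1.81, and Sqstm1 from 1.86 to 1.97.

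The genes most like Hmox1 over the 4 libraries were sought by the Euclidean distance of log2(RPKM + 1) after subtracting each gene's mean, among 4472 other kept genes with reads in all libraries. The nearest, ENSMUSG00000021811, was at a distance of 0.16, with a chromatin fold of 2.74 and a cytoplasmic fold of 0.964. The second, ENSMUSG00000031447, was at 0.17, with folds of 2.96 and 0.978. The first 5 lay within 0.23, with chromatin folds of 1.92 to 2.96 and cytoplasmic folds of 0.811 to 0.978. The files do not pair identifiers with names, so these genes are not named. Among the kept members Gclm was the nearest to Hmox1 at 0.68, followed by Srxn1 at 0.70, Sqstm1 at 0.95, Txnrd1 at 1.32 and Nfe2l2 at 1.99, and 10.4% of the 4472 genes lay nearer than Gclm.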

How the data were processed

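RNA-seq libraries of chromatin and cytoplasm were grouped by sample title, with 1 library per group. The deposited files give 1 RPKM value per Ensembl gene, computed by the authors. Cutadapt, STAR and GRCm38 are named without versions, per the submitters' processing notes. For read counting, annotation and strand, the method is not given in the sources used here. Per the labels' protocols, short RNA fragments were selected on a gel.

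Library totals were recovered as common divisors of inverse RPKM values that are whole numbers (tolerance 0.002, 20000 random pairs). Reads and gene length were then the smallest whole numbers giving all 4 values (relative error below 1e-12). If a gene's reads shared a factor with its length, both would come out too small and intervals too wide. The recovery was tested on simulated data. Recovered lengths were compared with RefSeq spans of GRCm38.p6, and promoters come from RefSeq.

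Folds are plain RPKM ratios. Counts past 2-fold used a pseudocount of 1 RPKM and a mean of at least 1 RPKM; genes without a read in a compared library were left out. Intervals are exact: Clopper-Pearson for folds, Poisson for levels and conditional odds ratios for ratios of folds. Alternatives were other pseudocounts, filters and scales. The rule of at least 30 reads was added after seeing the data.

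The members, lists and rules were chosen with earlier results of these data known. All 8 members and the 5 genes nearest to Hmox1 were to be reported. The members' symbols came with their identifiers; other identifiers are paired with no name in the tables used here. Lists of other NRF2 targets and regulators, heat shock genes, fraction markers and cell type markers were therefore not used here, and the fibroblast, fraction and heat shock labels were not checked against markers. Python 3.11.15, numpy 2.4.6, pandas 2.3.3, scipy 1.17.1 and matplotlib 3.10.9 were used.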

Additional observations from a re-analysis of the deposited data

Results flagged for a closer look

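On the deposited scale 6 of the 8 members lay on opposite sides of no change after heat shock in chromatin and cytoplasm. The share of all genes that did so was not computed, so this count does not set the members apart. Of genes with at least 30 reads, 48.5% were higher after heat shock in chromatin and 17.1% in cytoplasm. No test of the difference was made, since each group has a single library. The log2 fold in chromatin minus that in cytoplasm was -1.79 for Nfe2l2, which was lower in chromatin and higher in cytoplasm. The other 5 were higher in chromatin and lower in cytoplasm, with differences of 2.45 for Srxn1, 1.28 for Gclc, 1.17 for Gclm, 1.05 for Txnrd1 and 0.0797 for Sqstm1. Nfe2l2 and Srxn1 lay on opposite sides on all 4 scales. Gclc, Gclm and Txnrd1 did so on 2 of the 4 and were lower in both fractions on the others, and both folds of Sqstm1 were within counting error of 1. Hmox1 and Nqo1 lay on opposite sides with equal RPKM sums and without the 10 highest genes, so the set of genes depends on the scale. With equal sums their chromatin folds were 1.71 and 5.17 and their cytoplasmic folds 0.927 and 0.890.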

How the results depend on the processing

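With 1 library per group, differences between cultures cannot be seen, and reads limit Nqo1 most, with 7 in 1 library. No paired analysis was possible because each group has 1 library. Counts below are of members. Shares of all genes were computed only on the deposited scale, for the main rule and for plain ratios. The other counts have no such share beside them and show the effect of the processing, not a trait of the members. Of genes with at least 30 reads, 48.5% had a heat shock fold above 1 in chromatin and 17.1% in cytoplasm. For chromatin over cytoplasm the shares were 84.9% without heat shock and 88.4% after it. For chromatin after heat shock, 1 member was at least 2-fold higher; this was 2 with a pseudocount of 0.1, 3 with plain ratios and at least 30 reads (on the deposited scale), and 0 with a mean of at least 5 RPKM, which kept 1 member, with equal RPKM sums, without the 10 highest genes and with the median at 0. The 1 member at least 2-fold lower became 0 at 5 RPKM. Of the 8 folds there, 7 were above 1, and 3 with equal sums or without the 10 highest genes. In cytoplasm 0 members were at least 2-fold lower, and 1 with a pseudocount of 0.1 or with plain ratios. Of the 8 folds there, 3 were above 1, and 1 with equal sums or without the 10 highest genes. For chromatin over cytoplasm without heat shock, the 1 member at least 2-fold higher became 2 with a pseudocount of 0.1, 0 at 5 RPKM, 4 with equal sums, 3 without the 10 highest genes and 3 with plain ratios. The 0 members at least 2-fold lower became 1 with pseudocounts of 0.1 and 0.5, with the median at 0 and with plain ratios. Of those 8 ratios 5 were above 1, and 3 with the median at 0. After heat shock, the 1 member at least 2-fold higher became 3 with a pseudocount of 0.1, 2 with 0.5, 2 without a filter, 0 at 5 RPKM, 6 with equal sums, 0 with the median at 0 and 4 with plain ratios, and the 8 ratios above 1 became 2 with the median at 0. Single ratios past 2-fold turned direction in 3 cases. Srxn1 in chromatin over cytoplasm without heat shock was 1.06 with equal sums. After heat shock, with the median at 0, Nfe2l2 was 0.861 and Gclm 0.775. The scales act as 1 factor on all genes of a comparison, and the pseudocount and filter act on genes of low RPKM; no other cause was tested.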
